A study of Mus musculus with 4 samples.

Results

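The genes described here are 8 mouse genes of sodium-calcium exchange and mitochondrial calcium transport: Slc8b1, Slc8a1, Slc8a2, Slc8a3, Mcu, Micu2, Micu3 and Letm1. They were picked by name, and the group was formed because Slc8b1 had many reads, so its reads are given as a description. Of the 8 genes, 6 were among the 5614 genes with a read in either of 2 libraries of transposon insertions, where 26.6% of reference genes had one. Micu2 and Letm1 were listed in neither.

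The libraries were made in haploid neural stem cell-like cells of strain background 129Sv, which carry a single chromosome set, so a gene disrupted by the transposon has no intact copy left. The cells were differentiated from haploid embryonic stem cells. Their medium held FGF2 and EGF at 20 ng/ml each, the BMP receptor inhibitor LDN193189 at 300 nM, the activin and TGF-beta receptor inhibitor SB431542 at 10 μM, and a ROCK inhibitor, which was Y-27632, thiazovivin or both. The labels do not say which ROCK inhibitor went with which library. Both libraries were transfected with 20 μg of a piggyBac gene trap plasmid and 10 μg of a codon-optimised transposase and selected with G418. No treatment in the labels sets library 2 apart from library 1, and no untreated or unselected sample was analysed here. The assay reads genomic DNA at the transposon ends, not RNA, so the named cell type cannot be checked against marker expression.

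Each library was measured in 2 samples whose reads are pooled in 1 table. No value therefore has a replicate, no difference between the libraries was tested, and each interval below covers counting error only. Each interval also treats every read as a separate draw, and is too narrow where reads share a molecule. Library 2 held 48750 nonredundant and 1300140 redundant reads over 3168 genes, and library 1 held 55442 nonredundant and 877870 redundant reads over 4184 genes. The reads are PCR products counted with no molecular identifiers, so they cannot be taken as separate molecules. In a pool, more cells with an insertion in a gene and more PCR product from each such cell cannot be told apart. The tables give reads per gene with no position, so whether a read lies in an exon, an intron or a UTR is not analysed here.

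Cells hold cytosolic calcium low against a steep gradient. Exchangers of the plasma membrane use the inward flow of sodium to carry calcium out of the cell, a role that is large in excitable cells such as neurons and heart muscle. Mitochondria take up calcium through the uniporter, a pore in the inner membrane that is gated by calcium-binding regulators, and release it through a sodium-dependent exchanger of the same membrane.

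Slc8b1 encodes that mitochondrial exchanger, also called NCLX. It had 4497 nonredundant reads in library 2, against 8 in library 1. These were 9.22% of the reads of library 2 (exact Clopper-Pearson 95% interval 8.97 to 9.48) and 0.0144% of those of library 1 (0.00623 to 0.0284). The share in library 2 was 639 times that in library 1 (exact conditional 95% interval 324 to 1482), and the width of this interval comes from the 8 reads of library 1. Slc8b1 thus had reads in both libraries, but in far different amounts. Whether the 8 reads of library 1 come from cells of that library was not tested.

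No gene listed in both libraries had a higher ratio of its share in library 2 over that in library 1. There were 1736 such genes among the reference genes with curated transcripts, and in 7.6% of them the share was at least 10 times higher in library 2. The opposite lean, a share at least 10 times lower in library 2, was seen in 9.79%. A gene with no read in library 1 has no such ratio, and 1 gene of this kind had 797 reads in library 2. Because the group was formed on the reads of Slc8b1, its place among the genes listed in both libraries describes the choice and shows nothing further about it.

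**Figure D1:**
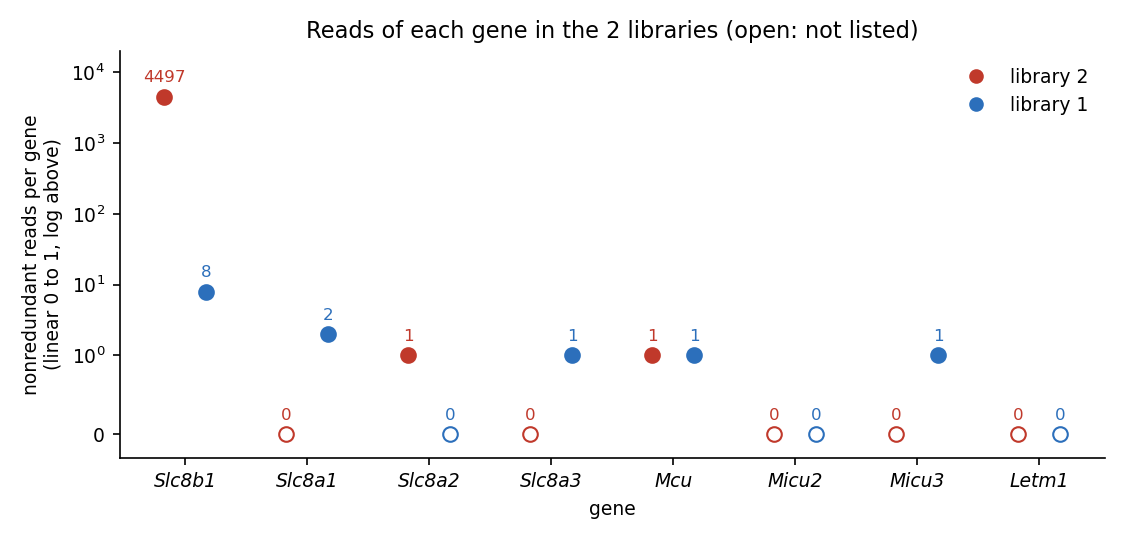
Nonredundant reads (vertical axis, linear up to 1 and logarithmic above) of each of the 8 genes (horizontal axis), with library 2 in red left of library 1 in blue. Each point is 1 pooled library, the number is its read count, and open points mark genes that were not listed. Slc8b1 had 4497 reads in library 2 and 8 in library 1, and every other point lies at 2 reads or fewer.

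In the order of nonredundant reads, Slc8b1 stood at place 2 in library 2 and at place 530 in library 1. The gene above it in library 2 was Stx1a, a syntaxin of synaptic vesicle fusion, with 4988 reads. The gene below it was Nrxn3, a neurexin of synaptic adhesion, with 2878 reads. Per unit of gene length, Slc8b1 was at place 1 in library 2 and at place 292 in library 1. The gene is of middling length, at percentile 57.0 of 21035 reference genes.

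Redundant reads, the other deposited column, which is at or above the nonredundant count in every gene, set Slc8b1 further apart. In library 2 it had 323039 of them, or 24.8% of all redundant reads (exact Clopper-Pearson 95% interval 24.8 to 24.9). The interval treats each redundant read as a separate draw, which these PCR products are not, so it is too narrow. Stx1a followed with 18.8% and Nrxn3 with 13.6%. In library 1 Slc8b1 had 71 redundant reads, or 0.00809% of the library. Of the redundant reads of library 2, more were thus assigned to this mitochondrial exchanger than to any other gene.

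The number of redundant reads per nonredundant read of Slc8b1 was 71.8 in library 2 and 8.88 in library 1. In library 2, the other 77 genes with 100 or more nonredundant reads ranged from 1.37 to 61.6 in this measure, with a median of 11.0, all below Slc8b1. Below that minimum some genes were higher than Slc8b1, such as 1 gene with 13 nonredundant and 2729 redundant reads. At the same minimum of 100, 126 genes of library 1 ranged from 1.69 to 76.1, with a median of 12.0. In library 1, 43 other genes had as many nonredundant reads as Slc8b1. Their median was 1.25 and their range 1 to 13.1, and 3 of them were above Slc8b1. Over all genes this measure was 26.7 in library 2 and 15.8 in library 1. Without Slc8b1 these became 22.1 and 15.8, so that 1 gene carried part of the higher redundancy of library 2, but not most of it.

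**Figure D2:**
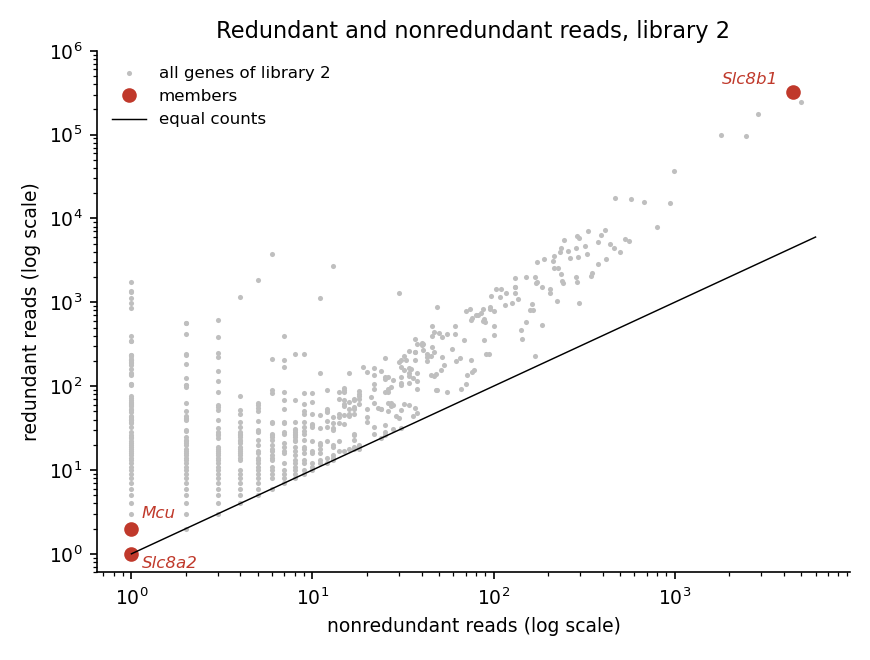
Redundant reads against nonredundant reads of every gene of library 2 (grey points, both axes logarithmic), with the 3 listed members in red and a line where the counts are equal. Slc8b1 lies at the top right with 4497 nonredundant and 323039 redundant reads. Mcu and Slc8a2 lie at 1 nonredundant read each.

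The genes whose pair of counts was most like that of Slc8b1 were Stx1a, Ski, a repressor of SMAD-dependent transcription, and Cpeb1, which regulates mRNA polyadenylation. Likeness was the distance between the log2(reads + 1) values of the 2 libraries, and it was 0.44, 0.88 and 1.57 for these genes. Stx1a had 4988 nonredundant reads in library 2 and 11 in library 1. Ski had 2469 in library 2 and 9 in library 1, and Cpeb1 had 1803 in library 2 and 4 in library 1. Their redundant reads per nonredundant read in library 2 were 48.9, 39.5 and 55.5, all below the 71.8 of Slc8b1. With only 2 libraries, this is a short measure of likeness.

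**Figure D3:**
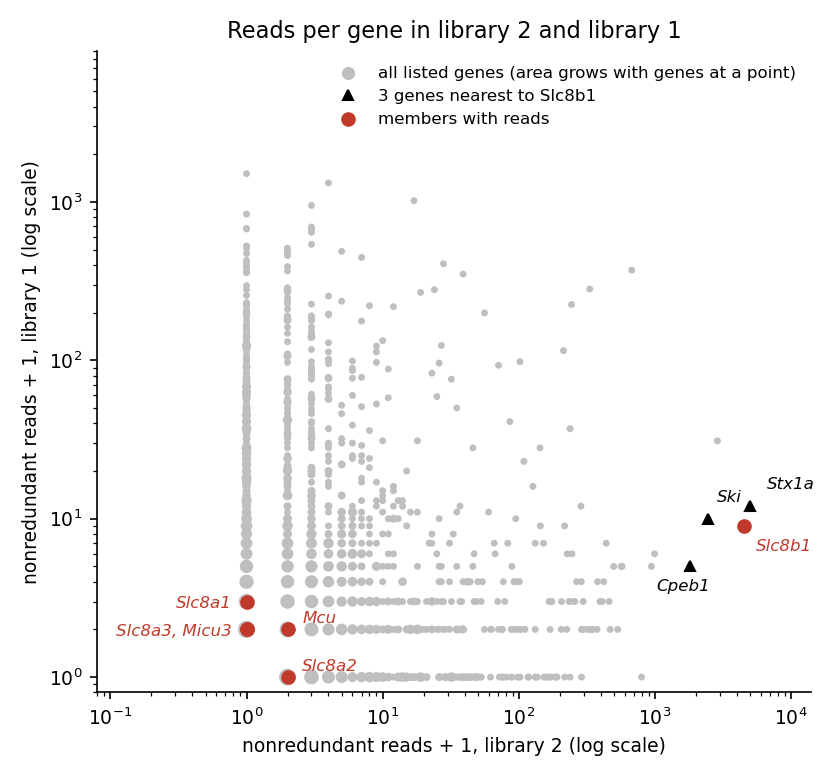
Nonredundant reads plus 1 of every listed gene in library 2 (horizontal axis) and library 1 (vertical axis), both on a log scale, with grey points whose area grows with the number of genes at that place. Members with reads are red and the 3 genes nearest to Slc8b1 are black triangles. Slc8b1 lies at the far right near Stx1a, and the other 5 members with reads lie in the lower left corner.

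The genes next to Slc8b1 on chromosome 5 had hardly any reads. Plbd2, which encodes a phospholipase B-like protein of the lysosome, and Tpcn1, which encodes a two-pore cation channel of endosomes and lysosomes, are its neighbours in the GRCm38.p6 gene table, and neither overlaps it there. Each had 1 nonredundant read in library 2, and library 1 listed neither of them. The reads assigned to Slc8b1 were therefore not accompanied by many reads in the adjoining genes.

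The remaining 7 genes held 2 nonredundant reads in all in library 2 and 5 in library 1. Counting Slc8b1, 3 of the 8 genes were listed in library 2, where 15.0% of the reference genes were listed, and 5 of the 8 in library 1, where 19.9% were. Slc8b1 and Mcu were listed in both libraries, as were 8.25% of the reference genes. The median of the 8 was 0 reads in library 2 and 1 in library 1, against 0 in both for all reference genes. Of the listed members, 2 in library 2 and 3 in library 1 had exactly 1 read, as had 59.7% of all genes listed in library 2 and 53.7% in library 1. Only Slc8b1 in library 2 reached 10 reads, which 1.4% of the reference genes did there and 2.37% in library 1.

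Among the exchangers of the plasma membrane, Slc8a1 encodes NCX1, the main form in the heart, which is also found in the brain. It was not listed in library 2 and had 2 nonredundant and 2 redundant reads in library 1. Slc8a2 encodes NCX2, which is mostly found in the brain, and had 1 read of each kind in library 2 and none in library 1. Slc8a3 encodes NCX3 of brain and skeletal muscle. It was not listed in library 2 and had 1 read of each kind in library 1. None of the 3 was thus found in both libraries, and all their counts are below 3 reads, taken as the one-sided 95% upper limit that a count of 0 allows. That limit is 0.00615% of the reads of library 2 and 0.00541% of those of library 1, so no ratio between the libraries is given for them.

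Of the uniporter genes, Mcu encodes the pore itself. It had 1 nonredundant read in library 2 and 1 in library 1, with 2 redundant reads in library 2 and 1 in library 1. Micu3 encodes a calcium-binding regulator of the pore that is abundant in the brain. It was not listed in library 2 and had 1 read of each kind in library 1. Micu2, which encodes a calcium-binding regulator of the pore, was not listed in either. Letm1 encodes an inner membrane protein of cation exchange and was also not listed. At this depth these levels cannot be told apart from one another.

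Gene length is set beside these counts because long genes were listed more often. The reference genes were put into 10 classes of equal size from short to long. Slc8a1, Slc8a3 and Mcu are in the longest class, in which 58.3% of genes were listed in library 2 and 71.7% in library 1. Of these 3, library 2 listed 1 and library 1 listed all 3. Micu2 and Micu3 are in class 9, where 29.3% were listed in library 2 and 42.9% in library 1. Letm1 is in class 8, where library 2 listed 22.0% and library 1 listed 27.6%. Slc8a2 is in class 7, with 15.9% in library 2 and 20.3% in library 1. Slc8b1 is in class 6, where 10.5% of genes were listed in library 2 and 13.7% in library 1. In that class 0.428% of genes reached 10 reads in library 2 and 0.951% in library 1.

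The piggyBac transposon integrates at the tetranucleotide TTAA, which is its own reverse complement. RefSeq windows from 250 bases before to 50 bases after the start of a gene (GRCm38.p6) were at hand for 6 of the 8 genes, 1 window each. Slc8b1 and Micu3 were the other members. TTAA was searched on both strands and was found in 2 of the 6 windows, against 52.4% of all 32851 windows. The stretches that hold it are shown because they are the only TTAA sites in the windows of members, with TTAA in capitals and the gene's own strand written 5′ to 3′. They lie at chr12:81333191-81333220 on the minus strand for Slc8a3 and at chr14:57999434-57999463 on the minus strand for Micu2.
Slc8a3: tccttgcggaggcTTAAtgggcaaagctct
Micu2: cctgttaggacagTTAAccagctaactcat
Slc8a3 had 1 read, in library 1, and Micu2 none. The tables do not say where in a gene a read lies, so a match to these stretches could not be looked for, and the 4 windows without TTAA show only that these letters are not in them.

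Other genes of calcium transport were taken as 4 lists with 38 genes, none of them among the 8. In all, 10 of the 38 were listed in library 2, or 26.3% against 15.0% of the reference genes, and 17 in library 1, or 44.7% against 19.9%. The median gene of the 38 had 0 reads in both libraries, as had the median reference gene. Of the 38 genes, 13 are in the longest class, and of these 8 were listed in library 2 and 12 in library 1. In that class 58.3% of the reference genes were listed in library 2 and 71.7% in library 1. Among the 25 shorter ones, 2 were listed in library 2 and 5 in library 1. From class 1 to class 9, the listed share of reference genes rose from 0.333% to 29.3% in library 2. In library 1 it rose from 0.333% to 42.9%. The shares of all 38 genes given above therefore do not account for gene length.

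Of 13 partners of the uniporter and carriers or channels of the mitochondrial membranes, 1 was listed in library 2 and 1 in library 1. That is 7.69% in each, against 15.0% of the reference genes in library 2 and 19.9% in library 1. Of the 13 genes, 12 are outside the longest class, and longer genes were listed more often. The one in library 2 was Slc25a24, a calcium-dependent carrier of ATP-Mg and phosphate, with 2 nonredundant reads. The one in library 1 was Letm2, a relative of Letm1, with 5 nonredundant and 24 redundant reads. The pore-like gene Mcub, the essential small subunit gene Smdt1, Mcur1 and the 3 voltage-dependent anion channel genes Vdac1, Vdac2 and Vdac3 were not listed. Of all 21 genes of mitochondrial calcium handling and plasma membrane sodium-calcium exchange counted so far, only Slc8b1 had more than 5 reads. That cut is the highest count of the other genes, and the group was formed on the reads of Slc8b1. Of the reference genes, 1.4% had 10 or more reads in library 2 and 2.37% in library 1.

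Of the 5 potassium-dependent sodium-calcium exchangers, 2 were listed in library 2 and 3 in library 1. That is 40% and 60%, against 15.0% and 19.9% of the reference genes. All the listed ones are among the 3 genes of this list in the longest class. Slc24a3 had 2 nonredundant reads in library 2 and 6 in library 1. Slc24a2 had 2 in library 2 and 1 in library 1. Slc24a4 was not listed in library 2 and had 1 in library 1. Of 9 calcium pumps, 1 was listed in library 2 and 5 in library 1, or 11.1% and 55.6%. Here 2 of the 9 are in the longest class, and library 1 listed both of these. Atp2b2, a plasma membrane calcium pump, was not listed in library 2 and had 3 reads in library 1. Atp2c2, a pump of the secretory pathway, had 1 read in each library. Atp2b1, another plasma membrane pump, had 1 nonredundant read, in library 1.

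Release and entry of stored calcium gave 6 of 11 genes in library 2 and 8 of 11 in library 1. That is 54.5% and 72.7%, against 15.0% and 19.9% of the reference genes, which does not account for gene length. This list held every gene of the 4 lists with 10 or more reads. Of the 11 genes, 7 are in the longest class, and library 2 listed 6 of these and library 1 all 7. Of the reference genes in that class, 58.3% were listed in library 2 and 71.7% in library 1. There, 7.47% reached 10 reads in library 2 and 13.5% in library 1. Itpr1, a receptor channel that releases calcium from the endoplasmic reticulum, had 1 nonredundant read in library 2 and 179 in library 1, with 1 redundant read in library 2 and 3080 in library 1. Stim2, a sensor of stored calcium, had 1 nonredundant read in library 2 and 41 in library 1. Ryr3, a ryanodine receptor gene, had 13 in library 2 and 3 in library 1, and the sensor gene Stim1 had 10 in library 2 and 1 in library 1. Itpr1 and Stim2 thus had most of their reads in library 1, and Ryr3 and Stim1 in library 2. All 4 of these genes are in the longest class. Ryr2 had 2 nonredundant reads in library 2 and 7 in library 1. Itpr2 had 2 in library 2 and 4 in library 1, and library 1 alone listed Itpr3, with 1. Itpr2 had 561 redundant reads in library 2 behind its 2 nonredundant ones, a ratio of 280.5 that is higher than that of Slc8b1 but rests on 2 reads. The 3 Orai genes of the plasma membrane channel were not listed.

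**Figure D4:**
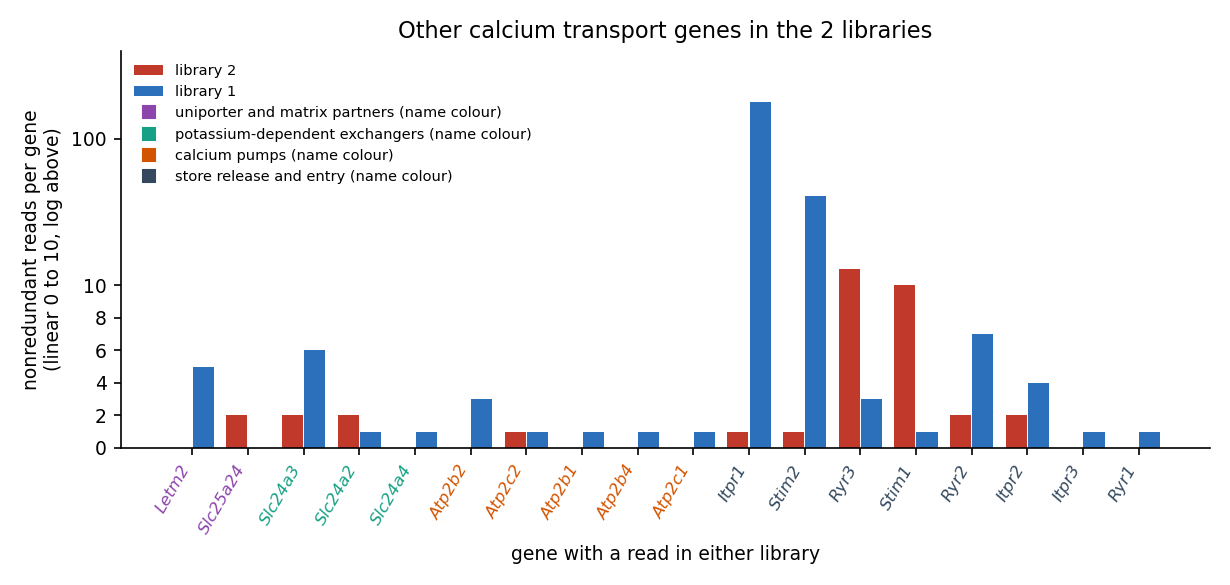
Nonredundant reads (vertical axis, linear up to 10 and logarithmic above) of the 18 other calcium transport genes with a read in either library, with library 2 in red left of library 1 in blue and the colour of a name giving its list. Itpr1 had 1 read in library 2 and 179 in library 1, and no gene of the uniporter list is above 5 reads.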

How the data were processed

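Splinkerette PCR, a nested PCR on adapter-ligated DNA, was used to amplify the junctions of transposon and genome, which were sequenced on an Illumina HiSeq, per the labels' protocols. CASAVA, BWA and the build mm9 were used, per the submitters' processing notes. Both columns of the deposited tables are raw counts of reads per gene with no normalization, per the file headers and the values, and a gene is listed only with at least 1 read. The rule that gives a read to a gene and the meaning of nonredundant are not stated there.

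Samples were grouped into library 2 and library 1 by the table that their labels name, with 2 samples each. In each library 1 sample title ends in 3 and the other in 5, and the labels do not explain these numbers. Nonredundant reads gave the main values. Genes were matched through transcripts, then symbol or synonym, to RefSeq (GRCm38.p6): 3167 of 3168 genes in library 2 and 4182 of 4184 in library 1. The background was the 21035 genes with curated coding transcripts. The table's lengths, from another build than mm9, served to order genes and to divide their reads for the places per gene length. Intervals were two-sided and computed with SciPy 1.17.1. No test was run, because each library is 1 pool.

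The 8 genes, the lists and the naming rule were chosen with earlier results of these data known. Named are the 8 genes, list genes with 10 or more reads, up to 3 further genes per list, the 3 nearest in pattern, and the neighbours of Slc8b1 by rank and position. The other genes named as not listed were named after their values were seen. A list gene that stays in the counts is not reported here by name. Other read minima, redundant reads, other totals, per-length ranks and matching by symbol alone were tried.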

Additional observations from a re-analysis of the deposited data

How the results depend on the processing

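Depth limits every member but Slc8b1 in library 2, since the rest have 8 reads or fewer. With redundant reads, the share of Slc8b1 was 24.8% in library 2 in place of 9.22%, and the ratio of library 2 over library 1 was 3072 in place of 639; the cause was not tested. Without the other gene with most reads, the share in library 2 was 10.3%. Its place was 1 in library 2 both with redundant reads and per gene length, and 292 in library 1 per gene length. At 2 or more nonredundant reads, 1 of the 8 genes was left in library 2 and 2 in library 1, and at 2 or more redundant reads 2 were left in library 1. At 10 or more redundant reads, or at 5 or more nonredundant ones, 1 of the 8 was counted in library 1, in place of 0. Of the 38 other genes, 8 were left in library 1 at 2 or more reads, and at 10 or more reads 2 in library 2 and 2 in library 1. The other 10 of the 24 alternative values moved by less than the counting interval or by at most 1.5 times. Leaving out a sample could not be done, since the tables pool the samples. No paired analysis was possible because the columns carry no replicate and no result comes from a test.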
